A study of Mus musculus with 4 samples.

Results

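The dystrophin-glycoprotein complex and dysferlin were followed through 10 genes in hearts of mice that lack c-Jun in striated muscle: Dmd, Utrn, Dag1, Sgca, Sgcb, Sgcd, Dtna, Sntb1, Sntb2 and Dysf. Their members were all probe sets, the groups of short probes summarised as 1 signal, to which the platform annotation gives a single gene symbol from that list. This rule found 34 probe sets for the 10 genes, out of 45037 probe sets tested and 18193 genes with a probe set of their own. Gene expression had been measured in hearts of 10 weeks old mice on a mixed 129/Ola-C57BL/6 background, with 2 Jun f/f and 2 Jun delta mu hearts and 1 array per heart, to ask what the deletion of Jun does to the heart's transcripts. All 4 mice carried floxed alleles of Jun, and none is described as treated. Jun delta mu mice also carried Cre recombinase driven by the creatine kinase promoter, which is active in heart and skeletal muscle, so that other cells of the heart keep the gene, while the Jun f/f controls lacked Cre. The growth notes deposited with the arrays instead describe ventricles that were digested and plated in culture. Titles, source and methods speak of whole hearts, which is how the values are read here, and that conflict is unresolved.

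Dystrophin is a long rod-shaped protein under the muscle membrane that ties the actin cytoskeleton to a group of membrane proteins. In that group dystroglycan is the receptor that holds laminin outside the cell, the sarcoglycans form a bundle of membrane-spanning subunits beside it, and the syntrophins and dystrobrevins bind dystrophin inside the cell and anchor signalling proteins. Utrophin is the close relative of dystrophin that binds the same partners. Dysferlin is no subunit of the complex: it is a calcium-binding membrane protein needed to reseal tears in the muscle membrane. Loss of dystrophin causes Duchenne muscular dystrophy with cardiomyopathy, and loss of sarcoglycans or of dysferlin causes limb-girdle muscular dystrophies.

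Signals are given as deposited, on the log2 scale after robust multi-array averaging (RMA), and a difference is the mean of the Jun delta mu arrays minus that of the Jun f/f arrays. Each probe set was tested with limma, a linear model that shares the spread between arrays over all probe sets. Passing the threshold means a difference above 1.3-fold (0.38 on the log2 scale) with an unadjusted p under 0.05, the limits the study set. No probe set among the 45037 reached a Benjamini-Hochberg adjusted p under 0.05 with limma (smallest 0.237), while 2326 had an unadjusted p under 0.05. The smallest adjusted p of the members was 0.896, so each call below is an unadjusted one. A 95% interval that holds 0 has an unadjusted p above 0.05, and one that does not has a p below it. No batch is given for the 4 hearts, and p-values measure only the spread between these arrays.

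The targeted gene followed the labels. Jun probe set 1417409_at gave 8.30 and 9.00 in the Jun f/f hearts and 7.02 and 7.14 in the Jun delta mu hearts (difference -1.57), and 1448694_at gave 7.78 and 8.15 against 6.58 and 6.86 (difference -1.24). The arrays had like median signals of 5.45 to 5.47. Jun f/f replicate 1 stood somewhat apart, with correlations of 0.994 to 0.995 to the other 3 arrays, whereas the others reached 0.997 among themselves. Jun delta mu replicate 2 stood apart in atrial muscle markers, whose mean signal over 7 genes was 8.53 there and 6.52 to 6.81 on the other arrays. Cardiomyocyte markers, at signals near the top of the range, had a mean over 10 genes of 14.36 to 14.38 on every array. None of their 23 probe sets passed the threshold defined above, while 0.959% of all probe sets fell and 0.568% rose past it. Of the 23, 7 were lower in both Jun delta mu hearts, against 16.7% of all probe sets. Since Dmd lies on the X chromosome, the sex of the hearts was also compared: the Y-linked gene Kdm5d had 7.13 and 7.12 in Jun f/f and 7.20 and 7.18 in Jun delta mu hearts by probe set 1424903_at, and Xist had 3.48 to 3.57 by 1427262_at, so that the 4 arrays were alike in both.

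Of the 34 probe sets, 3 fell and 0 rose past the threshold in Jun delta mu hearts, 1 each for dystrophin, beta-2 syntrophin and dysferlin. Over all probe sets tested, 0.959% fell and 0.568% rose past it. The other 31 member probe sets stayed within 1.3-fold, and for 17 of the 34 the whole 95% interval of the difference did. Both Jun delta mu arrays lay below both Jun f/f arrays for 11 member probe sets, against 16.7% of all probe sets, and above them for 2, against 17.3%. The median difference was -0.04 over the members and 0.00 over all probe sets, and the median size of a difference, whatever its sign, was 0.10 and 0.09. Probe sets of 1 gene read RNA of the same gene and are not independent of each other. In whole hearts, fewer cells of a type and less RNA per cell cannot be told apart.

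**Figure D1:**
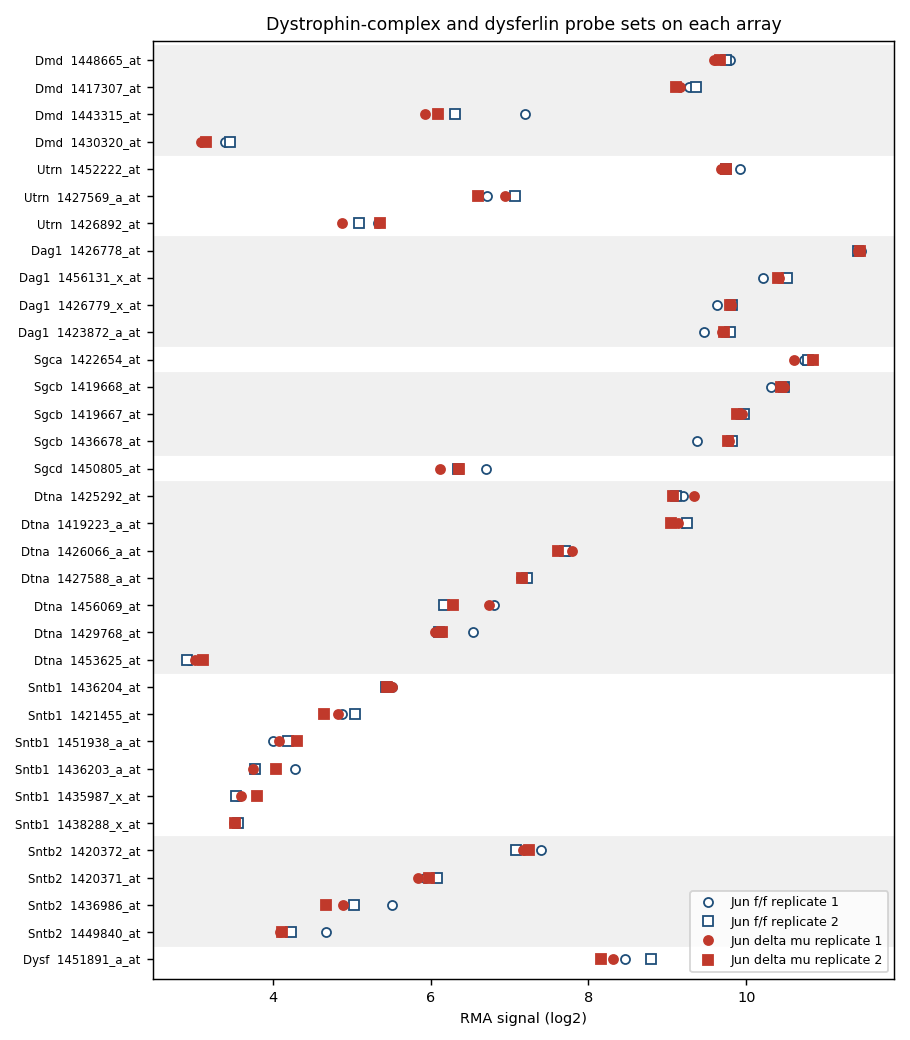
RMA signal (log2, x axis) of each of the 34 member probe sets (rows, grouped by gene with shaded bands) on the 2 Jun f/f arrays (open symbols) and the 2 Jun delta mu arrays (filled symbols). All 4 Dmd rows and the Dysf row have both filled symbols to the left of both open ones, and in 1443315_at of Dmd the open circle of Jun f/f replicate 1 lies far to the right at 7.20.

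Windows around listed starts are shown for Dmd and Dysf, which had a probe set that passed, and for the related pairs of Dmd with Utrn and of Sgcb with Sgcd, because c-Jun, the protein lost here, binds DNA as part of AP-1. They come from RefSeq on GRCm38.p6 and run from 250 bases before a start to 50 bases from it on, read 5′ to 3′ on the gene's strand. Capitals mark the AP-1 site TGANTCA, which is its own reverse complement, so that 1 search covers both strands. Of the 10 genes, 7 matched with 10 windows in all. Dtna, Sntb1 and Sntb2 had no entry. The annotated span of Dmd begins at 82814664, before both of its windows, and that first base has no window in the table. The same holds for Utrn and Sgcd on the minus strand, whose spans end at 12869888 and 47989451, beyond their windows.
Dmd first listed start, chrX:82948620-82948919 (plus strand): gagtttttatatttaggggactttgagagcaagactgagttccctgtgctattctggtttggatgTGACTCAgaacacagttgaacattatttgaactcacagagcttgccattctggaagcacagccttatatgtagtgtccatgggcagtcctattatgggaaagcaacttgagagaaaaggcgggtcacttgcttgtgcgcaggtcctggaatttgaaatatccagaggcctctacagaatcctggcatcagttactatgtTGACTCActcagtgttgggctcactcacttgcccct
Dmd second listed start, chrX:85048045-85048344 (plus strand): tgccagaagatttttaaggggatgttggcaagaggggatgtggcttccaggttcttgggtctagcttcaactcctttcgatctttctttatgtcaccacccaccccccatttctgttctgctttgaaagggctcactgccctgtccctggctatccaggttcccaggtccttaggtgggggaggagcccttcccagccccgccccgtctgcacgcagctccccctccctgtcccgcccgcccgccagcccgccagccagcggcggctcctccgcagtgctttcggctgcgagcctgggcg
Utrn, chr10:12861686-12861985 (minus strand): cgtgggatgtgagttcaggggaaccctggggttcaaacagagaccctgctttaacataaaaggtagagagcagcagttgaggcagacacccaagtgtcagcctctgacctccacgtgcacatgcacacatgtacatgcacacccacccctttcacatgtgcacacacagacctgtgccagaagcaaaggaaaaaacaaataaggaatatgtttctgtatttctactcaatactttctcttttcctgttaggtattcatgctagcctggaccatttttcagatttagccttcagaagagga
Sgcb, chr5:73647688-73647987 (minus strand): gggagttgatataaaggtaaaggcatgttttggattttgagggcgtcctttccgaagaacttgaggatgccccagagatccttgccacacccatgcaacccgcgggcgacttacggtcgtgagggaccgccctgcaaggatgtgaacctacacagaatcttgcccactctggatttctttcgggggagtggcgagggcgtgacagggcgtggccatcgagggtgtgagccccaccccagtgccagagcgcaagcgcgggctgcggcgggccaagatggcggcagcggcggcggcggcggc
Sgcd, chr11:47379276-47379575 (minus strand): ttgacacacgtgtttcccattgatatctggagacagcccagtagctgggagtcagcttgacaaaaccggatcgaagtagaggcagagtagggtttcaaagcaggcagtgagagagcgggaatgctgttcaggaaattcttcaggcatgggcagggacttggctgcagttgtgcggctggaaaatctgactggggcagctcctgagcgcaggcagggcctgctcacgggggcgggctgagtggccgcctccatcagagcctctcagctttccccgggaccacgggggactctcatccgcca
Dysf first listed start, chr6:84008348-84008647 (plus strand): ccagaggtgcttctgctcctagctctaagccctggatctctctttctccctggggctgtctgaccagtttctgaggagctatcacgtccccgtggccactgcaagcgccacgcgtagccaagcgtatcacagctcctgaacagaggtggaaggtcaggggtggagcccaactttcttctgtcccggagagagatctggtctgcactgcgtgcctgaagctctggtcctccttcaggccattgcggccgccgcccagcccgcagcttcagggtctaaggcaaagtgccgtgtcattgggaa
Dysf second listed start, chr6:84019136-84019435 (plus strand): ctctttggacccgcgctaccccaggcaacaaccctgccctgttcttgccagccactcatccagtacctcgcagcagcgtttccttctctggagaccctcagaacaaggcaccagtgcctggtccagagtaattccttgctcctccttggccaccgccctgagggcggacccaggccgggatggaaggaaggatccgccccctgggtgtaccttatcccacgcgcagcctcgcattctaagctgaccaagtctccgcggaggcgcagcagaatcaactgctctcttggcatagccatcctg
Among the members' 10 windows only the first Dmd window held the AP-1 site, with 2 copies of TGACTCA, 185 bases before the start and 14 bases after it. Over all 32851 windows of the table, 7.81% held at least 1 such site. The cyclic AMP response element TGACGTCA, searched in the same way and not overlapping the AP-1 letters, was in 0 of the members' 10 windows and in 1.79% of all. The first Dmd window was also poorer in G and C, at 45.7% of its bases, than the second at 62.7% and the Dysf windows at 60.0% and 61.0%. The median over all windows was 52.7%. These matches describe letters in the windows and say nothing of whether c-Jun binds there in the heart.

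Dystrophin, encoded by Dmd on chromosome X of GRCm38 from 82814664 to 85205050, had lower signals in Jun delta mu hearts by each of its 4 probe sets, and 1 of them fell past the threshold. Probe set 1443315_at gave 7.20 and 6.31 in the 2 Jun f/f hearts and 5.93 and 6.10 in the 2 Jun delta mu hearts. The groups did not overlap, but most of the distance came from Jun f/f replicate 1, which lay far above the other control. The difference was -0.74 (standard error 0.29, 95% interval -1.47 to -0.02, adjusted p = 0.896 with limma), which leaves 59.7% of the control signal on the linear scale. It shrank to -0.30 when Jun f/f replicate 1 was left out and grew to -1.19 when Jun f/f replicate 2 was. With the dimmest 40% of probe sets removed before the fit, the difference was the same but the unadjusted p was above 0.05 and the call was lost.

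The other Dmd probe sets differed by less. Probe set 1448665_at, the one with the highest signal of the gene, gave 9.80 and 9.75 in Jun f/f and 9.60 and 9.67 in Jun delta mu hearts. Probe set 1417307_at gave 9.27 and 9.37 against 9.16 and 9.12, and 1430320_at gave 3.40 and 3.46 against 3.10 and 3.15. In each of these the controls were close to each other and above both Jun delta mu hearts. The differences were -0.14 (95% interval -0.36 to 0.08), -0.18 (-0.41 to 0.05) and -0.31 (-0.53 to -0.08). The last of these had an unadjusted p under 0.05 but less than a 1.3-fold difference, and its signal stands near the bottom of the array. Fitted as the mean of its 4 probe sets, Dmd had 7.42 and 7.22 in Jun f/f and 6.95 and 7.01 in Jun delta mu hearts, a difference of -0.34 (95% interval -0.58 to -0.10, adjusted p = 0.933 with limma) that is also under 1.3-fold. By the median of the 4 probe sets the difference was -0.46 and passed the threshold. On every array that median is the mean of 1417307_at and 1443315_at, so it contains the call of 1443315_at and is no separate result. Taken per array as a difference from 1448665_at, the decrease of 1443315_at was larger by -0.60 (95% interval -1.27 to 0.06), with 0 inside that interval. Pairs that do not include 1448665_at were not tested. The annotation does not say which of the gene's transcripts each probe set reads.

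Utrophin, encoded by Utrn on chromosome 10 from 12382187 to 12869888, passed the threshold by none of its 3 probe sets. Probe set 1452222_at gave 9.93 and 9.74 in Jun f/f and 9.68 and 9.75 in Jun delta mu hearts, and 1427569_a_at gave 6.71 and 7.07 against 6.95 and 6.60. In 1426892_at the values were 5.33 and 5.09 against 4.88 and 5.36. The groups overlapped in all 3, since 1 Jun delta mu heart always reached above a control. The mean of the 3 probe sets differed by -0.11 (95% interval -0.30 to 0.09), an interval that holds neither a 1.3-fold decrease nor a 1.3-fold increase. That mean leaves out 1441153_at, which has no gene in the annotation but is named utrophin in a supplementary list of the study. It fell past the threshold (difference -0.45) and is described under other observations. Among the 3 annotated probe sets, the wider intervals of 1427569_a_at (-0.54 to 0.32) and 1426892_at (-0.55 to 0.37) each do hold a 1.3-fold decrease. Whether the change of utrophin differed from that of dystrophin was not tested.

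Dystroglycan, which Dag1 encodes on chromosome 9 from 108204861 to 108263977 as 1 precursor that is cut into the laminin-binding and the membrane-spanning subunit, was measured by 4 probe sets and passed by none. Probe set 1426778_at gave 11.45 and 11.42 in Jun f/f and 11.41 and 11.44 in Jun delta mu hearts, 4 values closer together than those of any other Dag1 probe set. The other 3 were lowest in Jun f/f replicate 1 and highest in Jun f/f replicate 2, with both Jun delta mu hearts between them, as in 1423872_a_at with 9.46 and 9.80 against 9.69 and 9.72. Differences ran from -0.01 to 0.07. Their mean was 0.04 (95% interval -0.19 to 0.28).

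The sarcoglycans are membrane proteins that stabilise dystroglycan at the muscle surface, and none of their 5 probe sets passed. Alpha-sarcoglycan, the subunit made in striated muscle alone, is encoded by Sgca on chromosome 11 from 94962777 to 94976327 and gave 10.73 and 10.78 in Jun f/f and 10.61 and 10.85 in Jun delta mu hearts. Jun delta mu hearts held both the lowest and the highest of these values, and the difference was -0.03 (95% interval -0.31 to 0.26). Beta-sarcoglycan, encoded by Sgcb on chromosome 5 from 73632749 to 73647737, gave 10.31 and 10.48 against 10.48 and 10.44 by 1419668_at and 9.88 and 9.98 against 9.95 and 9.88 by 1419667_at. By 1436678_at it gave 9.37 and 9.82 against 9.78 and 9.77. Jun f/f replicate 1 was the low array in the last, and the 3 Sgcb differences were 0.07, -0.01 and 0.18. Without Jun f/f replicate 2 the last became 0.40 and passed the threshold, and without Jun f/f replicate 1 it was -0.04.

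Delta-sarcoglycan, encoded by Sgcd on chromosome 11 from 46971077 to 47989451, gave 6.70 and 6.35 in Jun f/f and 6.12 and 6.36 in Jun delta mu hearts by its single probe set 1450805_at. The groups overlapped, as Jun f/f replicate 2 and Jun delta mu replicate 2 were alike. The difference was -0.29 (standard error 0.15, 95% interval -0.67 to 0.10). Here too the control arrays decided the size, which was -0.11 when Jun f/f replicate 1 was left out and -0.46, past the threshold, when Jun f/f replicate 2 was.

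Alpha-dystrobrevin, encoded by Dtna, binds dystrophin and the syntrophins inside the cell, and 0 of its 7 probe sets passed. Probe set 1425292_at, the one with the highest signal, gave 9.20 and 9.11 in Jun f/f and 9.34 and 9.07 in Jun delta mu hearts, with Jun delta mu hearts at both ends. In 1419223_a_at both Jun delta mu hearts, at 9.14 and 9.04, lay below both controls, at 9.19 and 9.24, a difference of -0.13 (95% interval -0.36 to 0.10). In 1427588_a_at they lay below as well, by -0.04, and in the dim 1453625_at above, by 0.14. The remaining 3 overlapped, and the largest difference of the gene, in 1429768_at, was -0.21 with 6.53 and 6.10 against 6.06 and 6.15. It was set by Jun f/f replicate 1, being 0.00 without that array and -0.43, past the threshold, without Jun f/f replicate 2. The mean over the 7 probe sets differed by -0.03 (95% interval -0.26 to 0.21).

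The syntrophins are adaptor proteins that bind dystrophin and bring ion channels and signalling enzymes to it. Beta-1 syntrophin, encoded by Sntb1 on chromosome 15 from 55636388 to 55907302, had 6 probe sets that ran from -0.22 to 0.15, and 0 of them passed. Probe set 1436204_at gave 5.52 and 5.43 in Jun f/f and 5.51 and 5.45 in Jun delta mu hearts, with full overlap and a difference of 0.01. The largest difference was that of 1421455_at, with 4.87 and 5.05 against 4.83 and 4.65, where both Jun delta mu hearts lay below the controls by little (difference -0.22, 95% interval -0.51 to 0.06). The 6 had signals between 3.51 and 5.52 on any array. The mean over them differed by -0.02 (95% interval -0.22 to 0.18).

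Beta-2 syntrophin, encoded by Sntb2 on chromosome 8 from 106935740 to 107014232, had a probe set that fell past the threshold, 1436986_at. It gave 5.51 and 5.03 in Jun f/f and 4.89 and 4.68 in Jun delta mu hearts. Both controls were higher, and Jun f/f replicate 1 was the highest by far. The difference was -0.49 (standard error 0.18, 95% interval -0.94 to -0.04, adjusted p = 0.896 with limma), or -0.25 when Jun f/f replicate 1 was left out and -0.73 when Jun f/f replicate 2 was. Probe set 1449840_at was also lower in both Jun delta mu hearts, at 4.10 and 4.12 against 4.68 and 4.23, with a difference of -0.35 that did not pass (95% interval -0.75 to 0.06) and that became -0.57 and passed without Jun f/f replicate 2.

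The 2 Sntb2 probe sets of higher signal did not show this. Probe set 1420372_at gave 7.40 and 7.08 in Jun f/f and 7.17 and 7.25 in Jun delta mu hearts (difference -0.03), and 1420371_at gave 5.92 and 6.08 against 5.84 and 5.98 (difference -0.09). The groups overlapped in both. Taken per array as differences from 1420372_at, 1436986_at was lower in Jun delta mu hearts by -0.46 (95% interval -0.81 to -0.10) and 1449840_at by -0.32 (-0.60 to -0.03). They were the only 2 of the members' 24 such pairs with an unadjusted p under 0.05, against 4.78% of the 16752 pairs over all genes, and the smallest adjusted p of the members was 0.905. The number of member pairs with such a p ran from 0 to 3 when 1 array was left out. The 4 Sntb2 probe sets averaged -0.24 (95% interval -0.51 to 0.03).

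Dysferlin, encoded by Dysf on chromosome 6 from 84008361 to 84211060, fell past the threshold by its single probe set 1451891_a_at. It gave 8.46 and 8.80 in Jun f/f and 8.32 and 8.16 in Jun delta mu hearts. Both controls were higher, and here Jun f/f replicate 2 was the highest. The difference was -0.39 (standard error 0.14, 95% interval -0.74 to -0.04, adjusted p = 0.896 with limma), leaving 76.3% of the control signal on the linear scale. Leaving out Jun f/f replicate 1 gave -0.56, and leaving out Jun f/f replicate 2 gave -0.22. The value lies just past 1.3-fold, and quantile normalization (-0.36) or cyclic loess (-0.37) of the deposited values put it just under. Dysf was the only one of the 10 genes to pass by the probe set with the highest signal, and also by the mean over probe sets. With its single probe set, the highest signal, mean and median are the same values, so these passes are not separate.

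**Figure D2:**
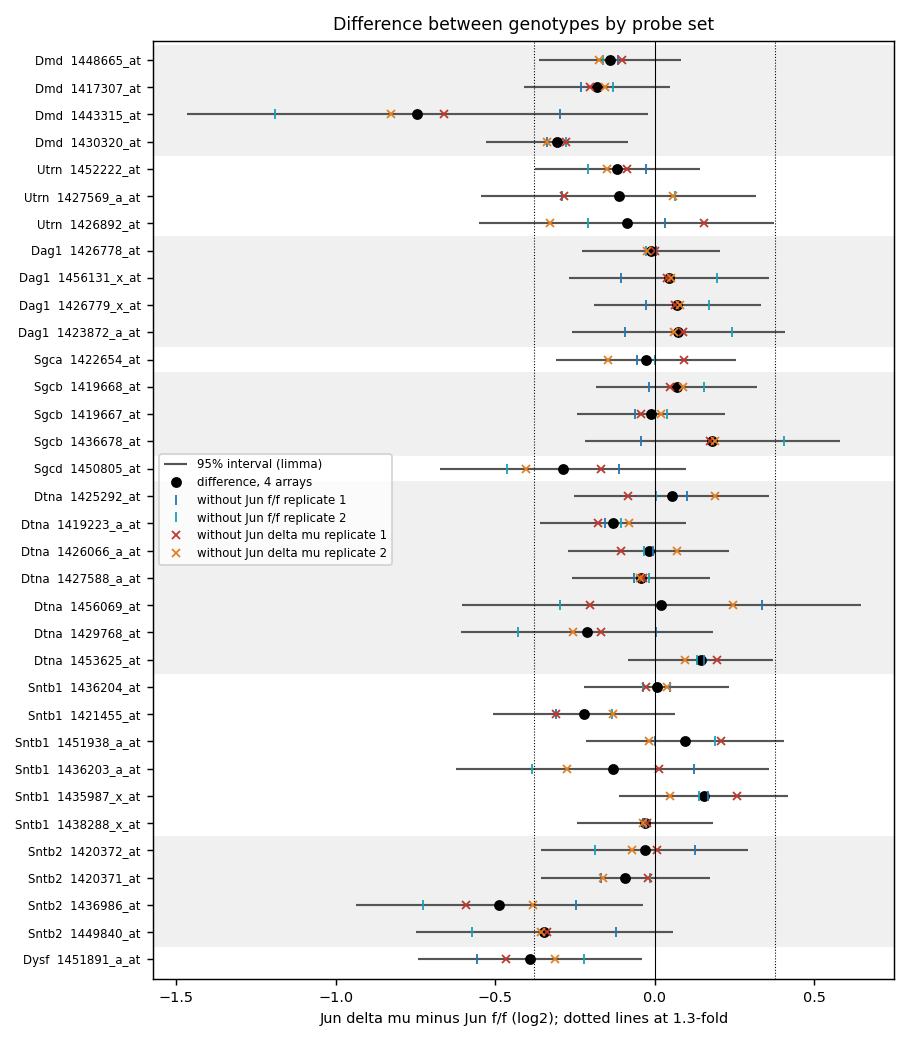
Difference between genotypes (Jun delta mu minus Jun f/f, log2, x axis) for each member probe set (rows), with the limma 95% interval as a line, the value over 4 arrays as a black point, and the value without each array as a coloured mark; dotted lines stand at 1.3-fold. Only the points of Dmd 1443315_at (-0.74), Sntb2 1436986_at (-0.49) and Dysf (-0.39) lie beyond the left dotted line and none lies beyond the right one.

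Each of the 3 calls was kept when 1 of the controls was left out and lost when the other control or either Jun delta mu array was. With 1 array left out at a time, the number of member probe sets past the threshold was 1 when it was Jun f/f replicate 1, 6 when it was Jun f/f replicate 2, and 0 when it was either Jun delta mu array. In the last case the differences kept their sign. They were -0.66 and -0.83 for Dmd, -0.59 and -0.38 for Sntb2 and -0.47 and -0.31 for Dysf without Jun delta mu replicate 1 and 2 in turn. The last Dysf value is under 1.3-fold, and the last Sntb2 value is just above it. By the methods' t-test on the same values, 0 of the 34 member probe sets passed.

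Jun f/f replicate 1 departed by over 1.3-fold from the average of its 3 companions in 8 of the 34 member probe sets, of which 7 were high, against 8.02% of all probe sets on that array. Each of the other arrays was so in 2 member probe sets, against 2.09% to 2.70% of all. These 8 include both 1443315_at of Dmd and 1436986_at of Sntb2, where this array was highest, but not Dysf. The only low one was 1436678_at of Sgcb.

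**Figure D3:**
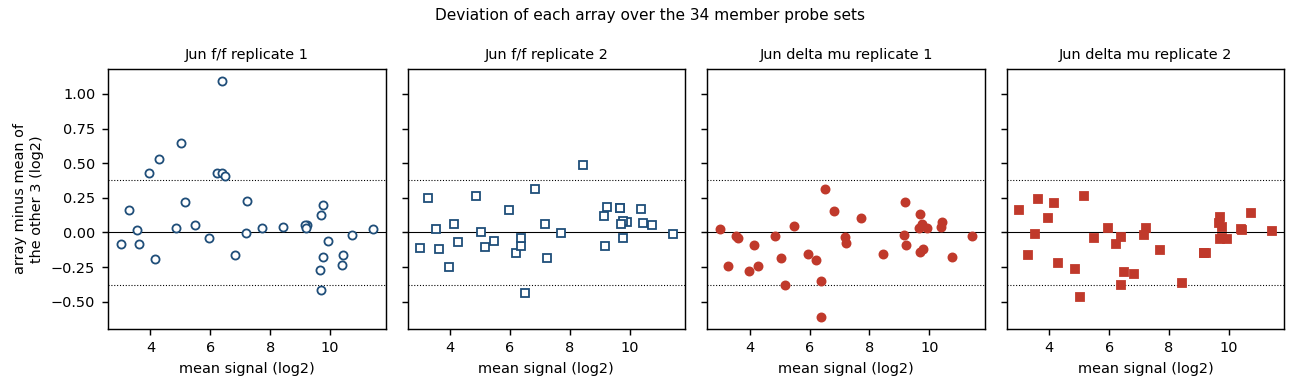
Deviation of each array from the mean of the other 3 (log2, y axis) against the mean signal (log2, x axis) for the 34 member probe sets, with 1 panel per array and dotted lines at 1.3-fold. In the panel of Jun f/f replicate 1, 7 points lie above the upper line and 1 below the lower, and each of the other panels has 2 points outside the lines.

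Set among all probe sets of the array, the 3 that passed stood at the 43.3rd (Sntb2), 62.4th (Dmd) and 83.5th (Dysf) percentile of mean signal. Of the 34 member probe sets, 10 had a mean signal below the median of all probe sets, and 1 of the 3 that passed, that of Sntb2, was among them. The 4 Dmd probe sets spread from low to high signals.

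**Figure D4:**
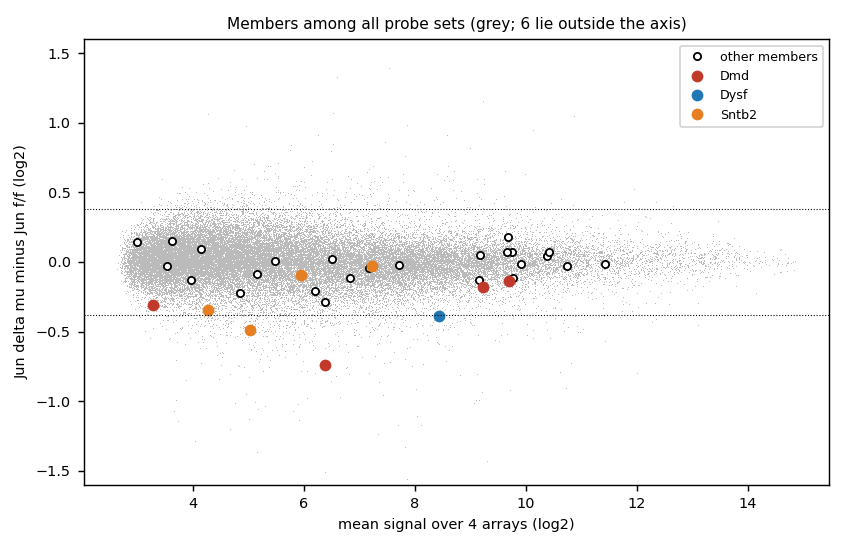
Difference between genotypes (Jun delta mu minus Jun f/f, log2, y axis) against mean signal over the 4 arrays (log2, x axis) for the probe sets tested (grey, 6 outside the axis) with the members on top; Dmd, Dysf and Sntb2 are coloured and dotted lines stand at 1.3-fold. All coloured points lie below 0, and those of Dmd 1443315_at, Sntb2 1436986_at and Dysf below the lower line.

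Other subunits of the complex were measured by 9 probe sets for 5 genes. None fell past the threshold and 1 rose, against 0.959% and 0.568% of all probe sets. The 1 that rose was for sarcospan (Sspn), the small membrane protein that sits with the sarcoglycans. Its probe set 1417645_at gave 9.13 and 8.82 in Jun f/f and 9.27 and 9.78 in Jun delta mu hearts, with Jun delta mu replicate 2 the highest (difference 0.55). The other Sspn probe set, 1417644_at, went the opposite way with 11.84 and 12.06 against 11.75 and 11.55 (difference -0.30), which did not pass. Per array, the first minus the second was higher in Jun delta mu hearts by 0.85 (95% interval 0.16 to 1.54, adjusted p = 0.905 with limma), and no single direction can be given for sarcospan. By the probe set of highest signal, beta-dystrobrevin (Dtnb) differed by -0.06, epsilon-sarcoglycan (Sgce) by -0.01, gamma-1 syntrophin (Sntg1) by -0.00 and gamma-2 syntrophin (Sntg2) by 0.06.

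Genes that work with the complex passed nowhere else, where 0.959% of all probe sets fell and 0.568% rose past the threshold. With shares this low, lists of this size can hold no call without differing from all probe sets. The numbers past the threshold in either direction were 0 of 34 probe sets for 11 genes of intracellular partners, 0 of 24 for 11 matrix ligands of dystroglycan such as the laminins, and 0 of 22 for 14 enzymes that attach the laminin-binding sugars to dystroglycan. They were likewise 0 of 37 probe sets for 19 genes of the ferlins and membrane repair, and 0 of 27 for 10 genes of the integrin linkage, which ties the membrane to the matrix in parallel with dystroglycan. The medians of these 5 lists lay between -0.02 and 0.01. The largest single difference in them was 0.52, for a probe set of the intracellular partners. It was above 1.3-fold but did not have an unadjusted p under 0.05 with limma. In the membrane repair list, which holds the closest partners of dysferlin, the largest difference was that of Cavin4, a caveolar coat protein of muscle. It gave 10.41 and 10.50 in Jun f/f and 10.21 and 9.99 in Jun delta mu hearts, with no overlap and a difference of -0.35 that was under 1.3-fold.

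**Figure D5:**
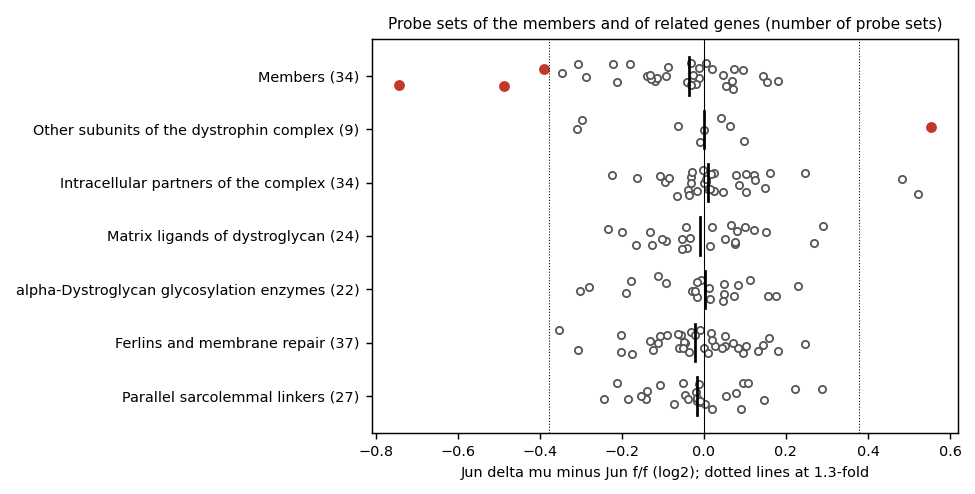
Difference between genotypes (Jun delta mu minus Jun f/f, log2, x axis) for each probe set of the members and of 6 lists of related genes (rows, number of probe sets in brackets), with the median as a black bar, probe sets past the threshold filled red and dotted lines at 1.3-fold. The filled points are the 3 of the members, all to the left, and 1 of Sspn at 0.55.

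Genes of the complex are also expressed by cells other than cardiomyocytes. Markers of such cells follow, beside skeletal-type and atrial muscle genes, which are not taken here to mark cells other than cardiomyocytes. Smooth muscle markers, a tissue that makes dystrophin and several sarcoglycans, had a mean signal over 10 genes of 9.01 and 8.89 in Jun f/f and 8.63 and 8.81 in Jun delta mu hearts. Of their 20 probe sets, 2, for Cnn1 and Mylk, fell past the threshold, against 0.959% of all probe sets. Both were highest in Jun f/f replicate 1. Without that array the difference went from -0.67 to -0.42 for Cnn1 and from -0.68 to -0.27 for Mylk. The Mylk probe set is not the one of highest signal of its gene. In both Jun delta mu hearts 8 of the 20 were lower, against 16.7% of all probe sets, and 1 was higher, against 17.3%. Markers of endothelium, which makes utrophin, had 9.42 and 9.45 against 9.31 and 9.32, with 0 of 17 probe sets past the threshold and 8 of 17 lower in both Jun delta mu hearts, against 16.7% of all probe sets. Skeletal-type muscle genes had 6.79 and 6.87 against 6.49 and 6.59. Of their 24 probe sets, 3 fell past the threshold (Myot, Casq1 and Mybpc2) and 1 rose (Myl1). Over all probe sets the shares were 0.959% and 0.568%. The paper treats myotilin (Myot) and Mybpc2 as accessory parts of the sarcomere. Fibroblast markers had 1 of 19 higher (Postn) and blood cell markers 1 of 6 lower (Alas2), against these same shares of all probe sets. Markers of macrophages and of nerve had 0 of 15 and 0 of 25 past the threshold. Atrial markers had 0 of 10 past the threshold, with the high level of Jun delta mu replicate 2 given above. The part of these cells in the differences of Dmd, Sntb2 and Dysf was not tested.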

How the data were processed

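Total RNA of 4 hearts was extracted with TRIzol and hybridised to Affymetrix Mouse Genome 430 2.0 arrays. The methods name AGCC for the raw data, and RMA and oligo stand in the submitters' processing notes, with versions not given in the sources used here. The deposited values are log2 RMA signals for 45101 probe sets, which the authors had corrected for background and normalized across the arrays, with no filter. Of these, 64 control probe sets were left out. The platform annotation names 1 gene for 34945 of the other 45037, several for 932 and none for 9160, and it can be old. RMA gives no detection call, so a dim signal may be background, and precision is limited by the number of arrays, 2 per genotype, which leave 2 residual degrees of freedom.

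The tests used lmFit and eBayes of limma 3.58.1 under R 4.3.3, two-sided, in a model of genotype alone, and p-values were adjusted after Benjamini-Hochberg across the 45037 probe sets. The methods' t-test is given as an alternative. Probe sets of a gene were compared by fitting, per array, each minus the one of highest mean signal, over 16752 pairs. Genes were also fitted as the mean of their probe sets. The procedure was tested on simulated data, and figures were drawn with matplotlib 3.10.9. Coordinates come from RefSeq on GRCm38.p6. The members, gene lists, motifs and tests were chosen with earlier results of these data known. All probe sets of the members are described, with list genes that passed, the other subunits by their probe set of highest signal, and markers that passed or set an array apart. Cavin4, Kdm5d and Xist were named after their values were seen.

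Replicate numbers did not pair the samples: deviations of same-numbered arrays from their group means correlated at 0.03 over all probe sets. The alternatives were the t-test, array weights, a robust prior with a trend, the replicate number as a block, quantile normalization, median centring, cyclic loess, removal of the dimmest 40%, linear means, removal of probe sets with an _s_at or _x_at suffix, the mean or median over a gene's probe sets, and leaving out each array. Where an array is left out, its remaining partner is taken to be as variable as the arrays of the other genotype.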

Additional observations from a re-analysis of the deposited data

How the results depend on the processing

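Of the member probe sets, 3 passed the threshold in the analysis as reported, 0 by the methods' t-test and 1 with the replicate number as a block, where the block kept Sntb2 1436986_at, lost Dmd 1443315_at and Dysf, and changed no other count below by over 1.5 times except that of genes. It was 2 with the dimmest 40% removed, without Dmd 1443315_at. Leaving out 1 array gave 0 to 6. Over all 45037 probe sets, 688 passed, 200 by the t-test, and 688 became 739 to 3452 with 1 array left out, highest without Jun f/f replicate 2. Of the related genes' probe sets, 1 passed, 0 by the t-test, and 1 to 8 with an array left out. By the probe set of highest signal 1 member gene, Dysf, passed, against 0 by the t-test, with the block, after quantile normalization and after cyclic loess, 2 by the median over probe sets (Dmd and Dysf) and 0 to 1 with an array left out. The groups were separate in 13 member probe sets, in 8 without the dimmest 40%, where fewer probe sets were counted, and in 19 to 28 with an array left out, where fewer arrays have to separate. The median member difference of -0.0365 was -0.0416 without the dimmest 40% and -0.0899 without the _s_at and _x_at probe sets, with a range of -0.0592 to -0.0349 with an array left out. Pairs of probe sets of a member gene with p under 0.05 numbered 2, and 0 to 3 with an array left out.

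The sign turned for differences near 0: after quantile normalization Dtna 1426066_a_at was 0.0232, Sgcb 1419667_at 0.000762 and Sntb2 1420372_at 0.00583, and after cyclic loess Dtna 1426066_a_at was 0.00439 and Sntb1 1436204_at -0.0072. With an array left out, the sign turned within these ranges. For Dag1 they were 1426778_at -0.0261 to 0.00251, 1456131_x_at -0.11 to 0.20, 1426779_x_at -0.0279 to 0.17 and 1423872_a_at -0.0938 to 0.24. For Dtna they were 1425292_at -0.0827 to 0.19, 1426066_a_at -0.11 to 0.0688, 1456069_at -0.30 to 0.34 and 1429768_at -0.43 to 0.00373. For Sgca they were 1422654_at -0.15 to 0.0927. For Sgcb they were 1419668_at -0.0168 to 0.16, 1419667_at -0.0604 to 0.0383 and 1436678_at -0.0418 to 0.40. For Sntb1 they were 1436204_at -0.0376 to 0.0488, 1451938_a_at -0.0188 to 0.21 and 1436203_a_at -0.39 to 0.12. For Sntb2 they were 1420372_at -0.19 to 0.13. For Utrn they were 1427569_a_at -0.29 to 0.0645 and 1426892_at -0.33 to 0.15. The cause of these changes was not tested. Dim probe sets, such as the 4 of Sntb1 that fall among the dimmest 40%, carry differences that the signal over background may limit, and no difference here survives adjustment over all probe sets.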

Other observations

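Probe set 1441153_at gave 5.60 and 5.22 in Jun f/f and 4.84 and 5.08 in Jun delta mu hearts. Both Jun delta mu hearts lay below both controls, and the difference was -0.45 (95% interval -0.85 to -0.04, adjusted p = 0.896 with limma), past the threshold. The annotation used here gives this probe set no gene, so it is no member and is not counted among the probe sets of Utrn, whose 3 annotated probe sets did not pass. A supplementary list of the study carries it under the name of utrophin, and it was looked up for that reason. Without Jun f/f replicate 1 the difference was -0.26, and without Jun f/f replicate 2 it was -0.64.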
